A study of Mus musculus with 20 samples.

Results

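Mss51 and 7 genes whose transcripts were lower beside it in mouse muscle after injection of a myostatin antibody are described here. The 8 genes are Mss51, Otub2, Art5, Dglucy, Rps6ka5, Gcnt2, Bicc1 and Pnrc1. They are 8 of the 11201 genes tested, and they were selected on the measured difference between the groups of these same samples, so their treatment differences are given as a description and without a test. RNA came from the gastrocnemius, a calf muscle, and was measured on 20 Affymetrix mouse arrays. The treated group of 10 samples, called JA16 after the antibody, came from mice injected into the peritoneum with 0.12 mg per g body weight on day 1 and 0.09 mg per g on day 3. The other group of 10 samples came from mice injected with saline on the same days. All were killed on day 5. The labels give no strain, age, sex or genotype, and they do not say that each sample came from its own mouse, so p-values measure how far these samples spread, and some of that spread may be technical.

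Myostatin is a secreted member of the TGF-beta family that limits skeletal muscle growth. It binds activin type II receptors on muscle fibres, and the receptor complex phosphorylates the transcription factors Smad2 and Smad3. Smad3 binds DNA at the letters CAGAC and at the palindrome GTCTAGAC. Mss51 encodes a zinc finger protein of the MYND type found mainly in skeletal muscle and tied there to oxidative metabolism, and it is named after a yeast protein that activates translation of a mitochondrial cytochrome oxidase subunit.

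The deposited values are array intensities in arbitrary units on a linear scale, scaled by the authors to one trimmed mean on every array, and differences are log2 intensity in JA16 minus saline. Array medians ran between 38.9 and 77.1, and arrays correlated with each other at 0.88 to 0.937. Replicate numbers run from 1 to 10 in both groups, and same-numbered samples deviated together from their group means across genes (correlations of 0.377 to 0.786), so they are set side by side as pairs. Array numbers alternate between saline and JA16. In all 10 pairs the array of the JA16 sample is numbered after that of the saline sample, so array order within a pair and treatment cannot be told apart. The arrays fell into 2 sets, which are later called array sets. The log2 ratio of the 3' to the 5' control probe sets for beta-actin, a measure of how far the amplified cDNA reaches, was 1.33 to 1.83 in JA16 and 1.69 to 1.84 in saline for replicates 1 to 6, and 0.504 to 0.585 in JA16 and 0.476 to 0.643 in saline for replicates 7 to 10. The same ratio for the control gene Gapdh overlapped between the sets. It was 0.208 to 0.367 in JA16 and 0.285 to 0.414 in saline for replicates 1 to 6. For replicates 7 to 10 it was 0.225 to 0.3 in JA16 and 0.181 to 0.321 in saline. Both sets hold JA16 and saline samples. Same-numbered samples always share a set, so the correlations between them given above include any difference between the sets. Those correlations cannot tell pairing by number from a shared set. All 13 skeletal muscle markers were measured, among them Ckm, the muscle creatine kinase, at 20606 ± 2058 in JA16 and 19367 ± 2273 in saline samples (SD, n = 10 each).

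Mss51 showed the largest difference of the 8. Its single probe set had a lowest, median and highest intensity of 1111, 2329 and 5565 in JA16 samples, against 5293, 7467 and 10225 in saline samples. The groups overlapped through 1 sample, JA16 replicate 9, which lay above saline replicate 5, and the other 9 JA16 samples lay below every saline sample. The means were 2743 ± 1421 in JA16 and 7686 ± 1554 in saline (SD, n = 10 each). The log2 difference was -1.63 (SE 0.23), which puts JA16 at 32.3% of saline. All SEs come from limma fits without the replicate block unless stated otherwise. Mss51 was lower in JA16 in all 10 pairs, with log2 differences of -2.59 in pairs 1 and 6 and -0.31 in pair 9. Leaving out any one pair gave differences between -1.78 and -1.52.

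The bases before the start of Mss51 are shown because they hold a Smad palindrome, in capitals, while no other member's window did. The letters were read from a RefSeq table of 300-base windows, 250 bases before to 50 after each gene's start, in build GRCm38.p6, and only the 250 bases before the start are printed.
Mss51 (chr14:20496902-20497151, minus strand): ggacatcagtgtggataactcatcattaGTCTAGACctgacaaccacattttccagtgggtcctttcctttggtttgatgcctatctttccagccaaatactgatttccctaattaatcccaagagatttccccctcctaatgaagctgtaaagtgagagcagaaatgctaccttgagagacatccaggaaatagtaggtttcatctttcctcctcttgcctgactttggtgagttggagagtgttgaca
The palindrome GTCTAGAC lies 222 to 215 bases before the start. It occurred in 70 of the 32851 windows of the table (0.213%) and in 0.248% of the 11705 windows of tested genes. The shorter letters CAGAC, read on both strands, were not in this window. These letter matches are a description of sequence and not of binding.

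**Figure D1:**
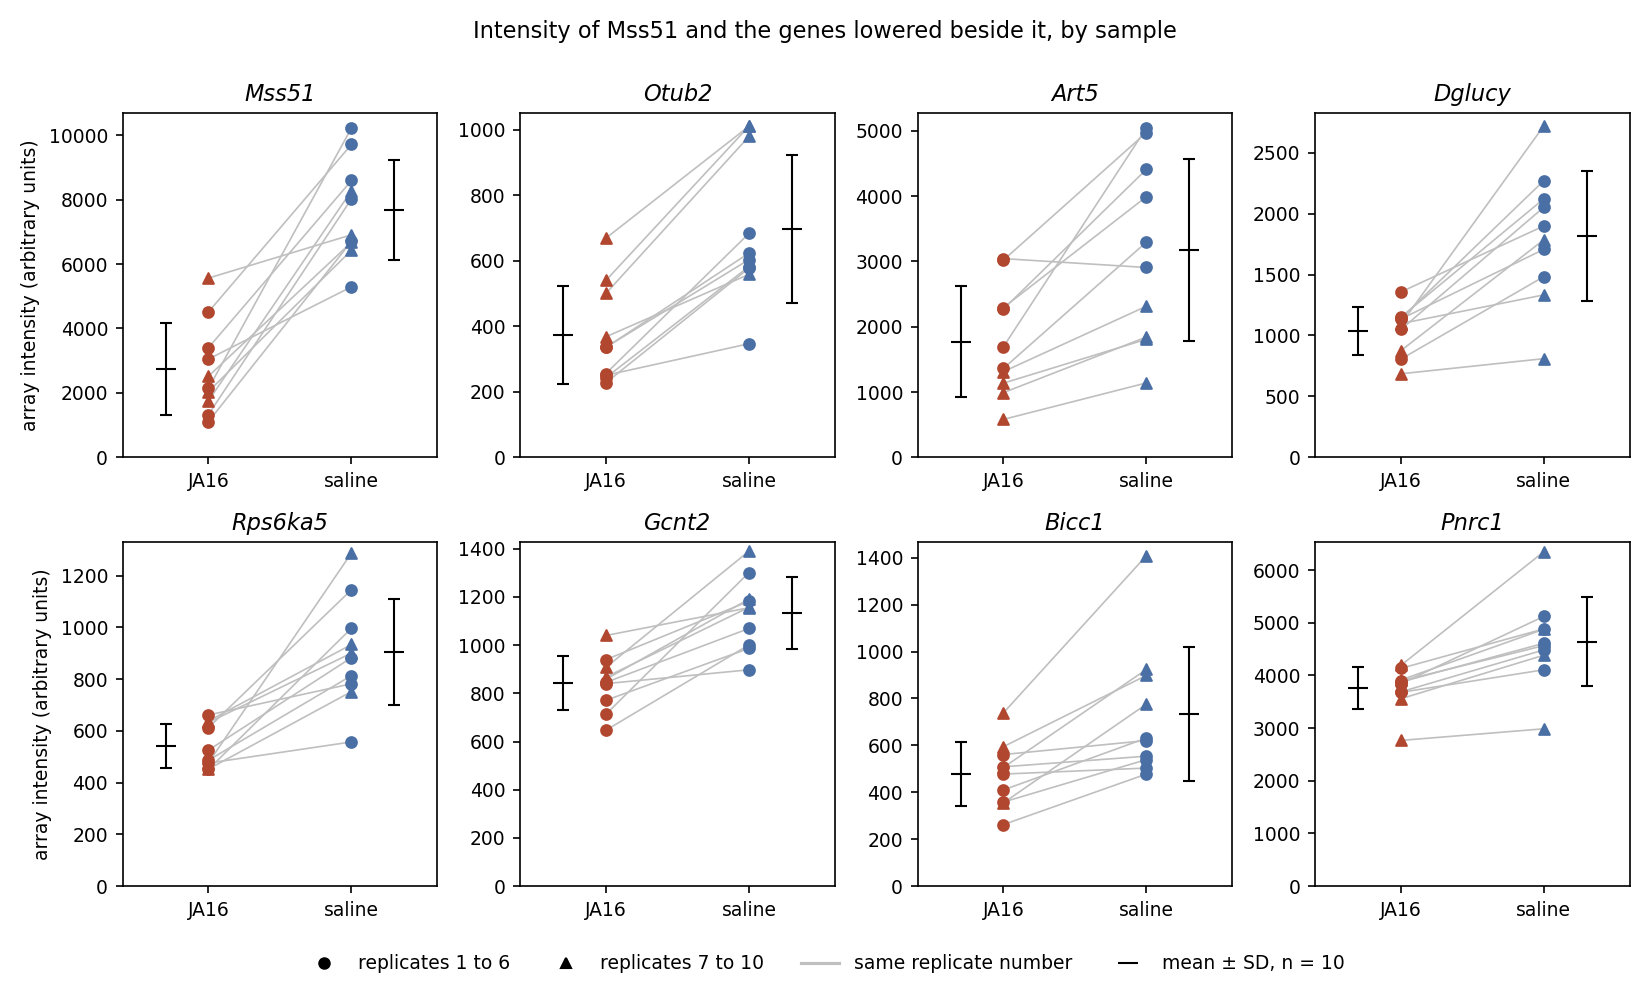
Array intensity (arbitrary units, linear axis from 0) of each of the 8 genes in JA16 samples (left, red) and saline samples (right, blue). Grey lines join samples of the same replicate number, circles are replicates 1 to 6, triangles are replicates 7 to 10, and bars are the mean ± SD of 10 samples. For Mss51, 9 of 10 JA16 samples lie below all saline samples, and the circles and triangles of Art5 lie apart in both groups.

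Otub2 and Art5 encode enzymes that act on other proteins. Otub2 is a deubiquitinase of the OTU family. Its lowest, median and highest intensities were 227.7, 335.8 and 669.2 in JA16 samples, against 346.9, 613.7 and 1011 in saline samples. Its log2 difference was -0.93 (SE 0.22), below 0 in all 10 pairs, and the groups overlapped: 6 JA16 samples lay below every saline sample. Art5 encodes an ADP-ribosyltransferase, which attaches ADP-ribose to proteins. It had 580.8, 1528 and 3044 in JA16 samples, against 1140, 3103 and 5047 in saline samples, a log2 difference of -0.86 (SE 0.30). Art5 was lower in JA16 in 9 of 10 pairs, and pair 2 was at 0.07. The array sets of Art5 did not overlap in either group. Art5 reached at most 1313 in JA16 and 2315 in saline replicates 7 to 10, and ran from 1362 up in JA16 and from 2908 up in saline replicates 1 to 6. Otub2 ran from 368.1 up in JA16 replicates 7 to 10 and reached at most 336.1 in JA16 replicates 1 to 6. Its saline sets overlapped, since the lowest of saline replicates 7 to 10 was 558.7 and the highest of saline replicates 1 to 6 was 683.6.

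Dglucy and Rps6ka5 are each other's nearest measured neighbour on chromosome 12, with 3 genes of the RefSeq table that were not measured between them. Dglucy encodes the mitochondrial D-glutamate cyclase, which acts on a D-amino acid. Its lowest, median and highest intensities were 685.5, 1095 and 1357 in JA16 samples, against 809.6, 1843 and 2721 in saline samples, with a log2 difference of -0.77 (SE 0.18). The overlap came from the saline side: 8 saline samples lay above every JA16 sample. Rps6ka5 encodes Msk1, a kinase that ERK and p38 activate and that phosphorylates CREB and histone H3. It had 451.7, 506.2 and 661.7 in JA16 samples, against 557.6, 892.2 and 1288 in saline samples, with a log2 difference of -0.72 (SE 0.14). For Rps6ka5, 9 saline samples lay above every JA16 sample, saline replicate 2 being the exception. Both genes were lower in JA16 in all 10 pairs, and both differed most in pair 8.

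The bases before the starts of this pair of neighbours are shown because the genes lie on opposite strands and are read away from each other, with the box CAGAC, or its reverse complement, in capitals.
Dglucy (chr12:100778807-100779056, plus strand): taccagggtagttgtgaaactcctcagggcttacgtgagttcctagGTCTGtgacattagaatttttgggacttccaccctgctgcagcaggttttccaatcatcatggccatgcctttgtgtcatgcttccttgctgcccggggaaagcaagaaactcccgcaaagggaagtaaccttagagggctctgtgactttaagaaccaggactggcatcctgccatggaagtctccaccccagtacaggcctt
Rps6ka5 (chr12:100725121-100725370, minus strand): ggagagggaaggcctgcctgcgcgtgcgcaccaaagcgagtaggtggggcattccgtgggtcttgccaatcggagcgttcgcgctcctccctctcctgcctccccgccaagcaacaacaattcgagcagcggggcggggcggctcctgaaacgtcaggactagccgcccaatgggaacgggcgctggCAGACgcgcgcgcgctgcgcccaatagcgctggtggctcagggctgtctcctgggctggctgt
Each window held 1 box, 204 to 200 bases before the start of Dglucy and 63 to 59 bases before that of Rps6ka5. The box was in at least 1 window of 5 of the 7 members with windows (Otub2, Art5, Dglucy, Rps6ka5 and Gcnt2). Some of these members have several windows. Counted by window and not by gene, it was in 49.6% of all windows and in 47.3% of those of tested genes. The window of Rps6ka5 was rich in G and C (69.3%, against a median of 52.7% over all windows), whereas that of Mss51 had 44.0%.

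Gcnt2, Bicc1 and Pnrc1 showed the smallest differences. Gcnt2 encodes the enzyme that adds I branches to poly-N-acetyllactosamine sugar chains. It had a lowest, median and highest intensity of 647, 852 and 1040 in JA16 samples, against 897.6, 1156 and 1390 in saline samples, and a log2 difference of -0.43 (SE 0.11). Its groups overlapped in part, with 7 JA16 samples below every saline sample. Bicc1 encodes an RNA-binding protein with KH domains, known from kidney cysts in mice with mutations in it. It had 262.5, 491.9 and 738.8 in JA16 samples, against 477.9, 626 and 1409 in saline samples, and a log2 difference of -0.59 (SE 0.20). Pnrc1 encodes a proline-rich coactivator of nuclear receptors. It had 2766, 3859 and 4191 in JA16 samples, against 2987, 4588 and 6350 in saline samples, and a log2 difference of -0.29 (SE 0.11), the smallest of the 8. All 3 genes were lower in JA16 in all 10 pairs, with the smallest pair difference of Bicc1 at -0.08.

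Across the 8 genes, pair 2 held the smallest difference for 4 (Otub2, Art5, Rps6ka5 and Gcnt2) and pair 8 the largest for 4 (Dglucy, Rps6ka5, Bicc1 and Pnrc1). For none of the 8 were the groups free of overlap, and 0% of all genes had every JA16 sample below every saline sample. Being lower in all 10 pairs held for 7 of the 8 and for 0.58% of all genes. In the limma fit over all genes without the replicate block, 1 member, Mss51, had an adjusted p under 0.05 and was lower, beside 0.0268% of all genes. With the replicate number as a block all 8 did, beside 0.125% of all genes. These counts come from the contrast on which the genes were named and are read no further. The median log2 difference of all genes was -0.02.

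**Figure D2:**
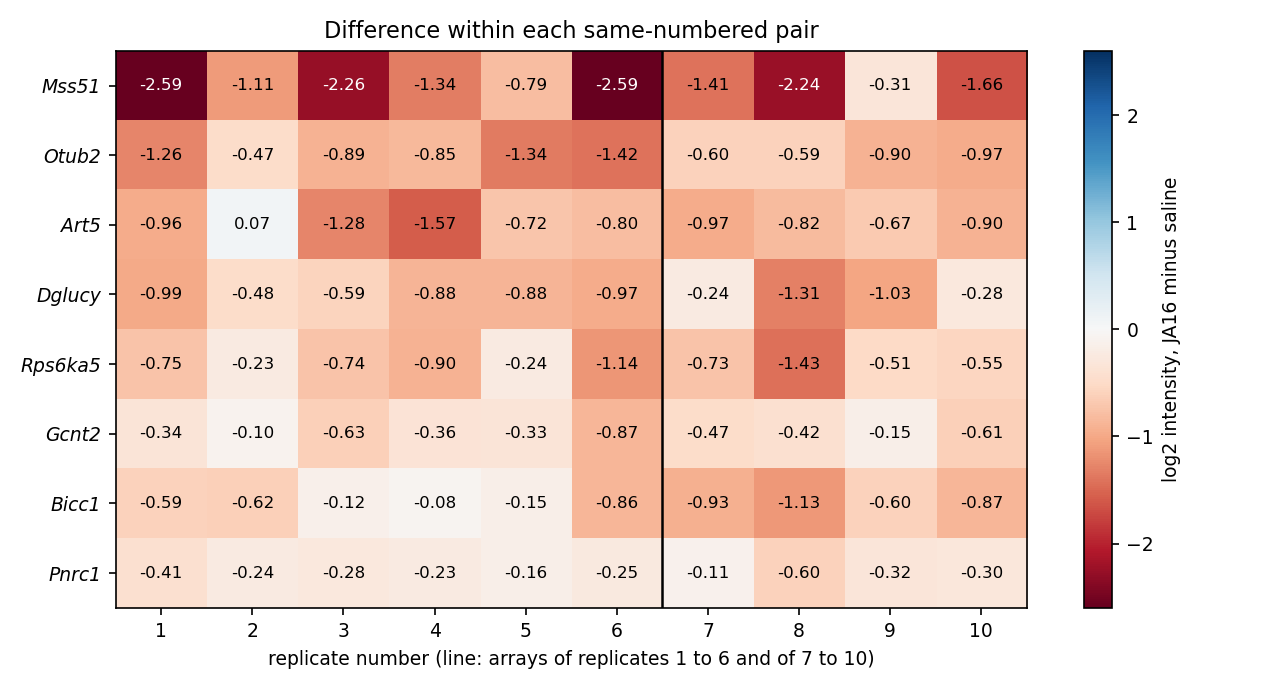
Log2 intensity in JA16 minus saline (colour and printed value) for each gene (rows) in each pair of same-numbered samples (columns), with a line between the array sets. All values but that of Art5 in pair 2 (0.07) are below 0, and Mss51 runs from -2.59 to -0.31.

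The size of the difference was then compared between the array sets. The genes were chosen on the difference over both sets, but this comparison is not free of the choice. All 8 pass with the replicate block, which weighs the spread of the pair differences, and a gap between sets adds to that spread. Small gaps among the members may therefore follow in part from the choice. Mss51 had a mean pair difference of -1.40 in replicates 7 to 10 and -1.78 in replicates 1 to 6, which differ by 0.38 (SE 0.49, and 0.40 with the replicate block). Bicc1 showed the widest gap toward replicates 7 to 10, at -0.88 against -0.40 in replicates 1 to 6, an interaction of -0.48 (SE 0.31). With the replicate block, which uses the pairs, the SE for Bicc1 was 0.20 (limma unadjusted p = 0.03343, adjusted 0.9995). Art5 had -0.84 in replicates 7 to 10 and -0.88 in replicates 1 to 6, although its level differed widely between the sets. In limma with a group by array set term, 0 members and 0% of all genes had an interaction with an adjusted p under 0.05, while 91 genes had an unadjusted p under 0.05. Differences between sets of the size of these standard errors were not detectable with 6 and 4 pairs.

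The level of a gene, with treatment as a term, differed between array sets for 46.6% of all genes (limma, adjusted p under 0.05, a test added after the data were seen), and for 3 of the 8 members. Replicates 7 to 10 minus replicates 1 to 6 gave -1.21 on the log2 scale for Art5 (SE 0.18, limma adjusted p = 1.023e-05), 0.77 for Otub2 (SE 0.15, limma adjusted p = 0.0002849) and 0.58 for Bicc1 (SE 0.16, limma adjusted p = 0.005081). Mss51 gave 0.02 (SE 0.24, limma adjusted p = 0.9488). On median-centred arrays the members past the threshold were Art5, Otub2, Dglucy and Pnrc1, with Bicc1 at 0.27 (limma adjusted p = 0.1079).

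Relative to its mean, the intensity of Mss51 spread more widely among JA16 than among saline samples, though the test of this missed its threshold. In linear intensity the spread was not wider, with an SD of 1421 in JA16 and 1554 in saline samples. Its coefficient of variation was 51.8% in JA16 and 20.2% in saline, and the ratio of the SDs of log2 intensity was 1.33 on the log2 scale. An exact two-sided test that swapped deviations within pairs gave p = 0.06055, which misses 0.05. The ratio of Mss51 was above that of 99.1% of genes, against a median ratio over all genes of 0.17. Other members differed in this. The ratio of Dglucy was -0.74, that of Pnrc1 -0.70 and that of Rps6ka5 -0.59, so their saline samples were the more spread, and 2.07%, 2.42% and 3.83% of genes had a lower ratio than these. Leaving out replicate 3 or replicate 5 took the exact p for Mss51 to 0.03516 and 0.04688, while median-centring took the ratio to 0.62 (exact p = 0.1289).

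The members also differed in how far a JA16 sample followed its saline partner. Across the 10 pairs the levels in JA16 and saline correlated at 0.06 for Mss51 (Pearson, permutation p = 0.869, Spearman 0.152, p = 0.682), 0.15 for Rps6ka5 (permutation p = 0.693) and 0.29 for Gcnt2 (permutation p = 0.415). The correlation was 0.917 for Pnrc1 (permutation p = 0.00041, Spearman 0.855, p = 0.00289), and 0.671 without the 2 samples farthest from the median. Within replicates 1 to 6 it was 0.636 for Pnrc1 (exact permutation p = 0.16) and 0.222 for Mss51 (exact permutation p = 0.676). Dglucy had 0.70 (permutation p = 0.0266) over the 10 pairs and 0.604 (exact permutation p = 0.2) within replicates 1 to 6. Bicc1 had 0.683 (permutation p = 0.0292) over the 10 pairs and 0.591 (exact permutation p = 0.212) within replicates 1 to 6. Otub2 had 0.803 (permutation p = 0.0057) over the 10 pairs, 0.274 (exact permutation p = 0.696) within replicates 1 to 6 and 0.586 with the mean of each array set removed. Art5 had 0.837 (permutation p = 0.00295) over the 10 pairs, 0.002 (exact permutation p = 1) within replicates 1 to 6 and 0.461 with the set means removed. These 8 correlations form one family, and the adjusted permutation p was 0.00328 for Pnrc1, 0.0118 for Art5, 0.0152 for Otub2 and 0.0467 for both Dglucy and Bicc1. All 8 genes pass the limma threshold with the replicate block but only 1 without it, and a block favours genes whose partners vary together. The choice of the genes may therefore have favoured such correlations. Levels also differed between array sets for 46.6% of all genes, and no share of all genes is given beside these values. The p-values are read no further.

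**Figure D3:**
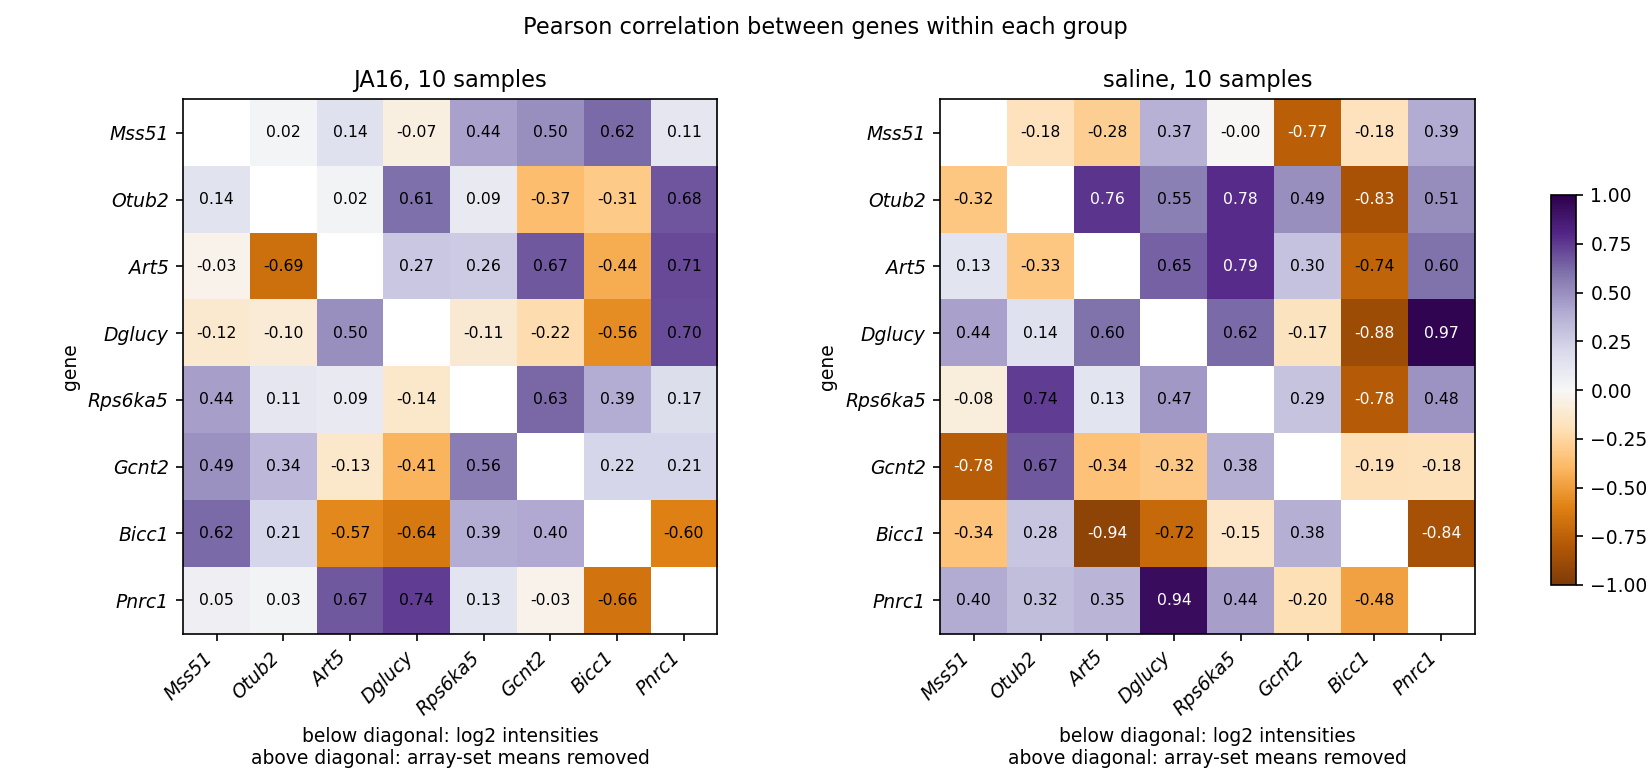
Pearson correlation between the log2 intensities of the 8 genes across the 10 JA16 samples (left) and the 10 saline samples (right). Below the diagonal are the values as measured, and above it those after the mean of each array set was removed. Dglucy with Pnrc1 is high in both panels, and the row of Mss51 is pale apart from Gcnt2 in saline and Bicc1 in JA16.

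The group term removes the contrast on which the genes were named, so the deviations within groups show whether the other 7 genes followed Mss51 from sample to sample. In limma across 11200 genes with the group as a term, the slopes on Mss51 of the 7 were all above 0, from 0.01 for Art5 (SE 0.29) and 0.02 for Otub2 (SE 0.21) to 0.10 for Rps6ka5 (SE 0.13) and 0.24 for Bicc1 (SE 0.19). None of the 7 slopes, and 0% of all genes, passed an adjusted p of 0.05, with 115 genes at an unadjusted p under 0.05. With the replicate block the slopes were also all above 0, with Rps6ka5 at 0.32 (SE 0.13, limma unadjusted p = 0.02673, adjusted 0.7439) and Gcnt2 at 0.20 (SE 0.10). Not every sign held: it depended on the scaling for Otub2, at -0.02 on median-centred arrays, and for Dglucy and Art5, at -0.03 and -0.12 after quantile normalization. With the block too, none of the 7 slopes and 0% of all genes passed, with 738 genes at an unadjusted p under 0.05. The correlation over deviations from the group means in 20 samples was highest for Bicc1 at 0.289, above that of 94.6% of genes, and lowest for Art5 at 0.009, above that of 53.7%. The slope itself did not differ between groups for any gene at an adjusted p of 0.05, with 197 genes at an unadjusted p under 0.05.

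Within one group, 56 correlations between members were computed, of which 14 involve Mss51, and 2 passed an adjusted p of 0.05 over the 56. Dglucy and Pnrc1 correlated at 0.74 in JA16 (permutation p = 0.01729, Spearman 0.43, p = 0.2146) and at 0.935 in saline (permutation p = 0.00027, adjusted 0.00756, Spearman 0.879, p = 0.00167). Without the 2 samples farthest from the median it was 0.207 in JA16 and 0.723 in saline. Within replicates 1 to 6 it was 0.76 in JA16 (exact permutation p = 0.09028) and 0.832 in saline (exact permutation p = 0.04306). Without replicate 7 it was 0.371 in JA16 (permutation p = 0.3276) and 0.829 in saline (permutation p = 0.00417). The other pair past the threshold was Art5 with Bicc1 in saline. The levels of both genes differ between the array sets, and within saline replicates 1 to 6 their correlation was -0.334 (exact permutation p = 0.4819). With the mean of each array set removed it was -0.736 over the 10 saline samples, and without replicate 7 it was -0.891 (permutation p = 0.00208).

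Of the pairs with Mss51, the correlation with Gcnt2 had opposite signs in the groups, 0.489 in JA16 (permutation p = 0.1503, Spearman 0.321) and -0.775 in saline (permutation p = 0.00873, adjusted 0.163, Spearman -0.842). It was -0.801 in saline replicates 1 to 6 (exact permutation p = 0.05139) and 0.249 in saline on median-centred arrays (permutation p = 0.4933), so its sign in saline depends on the scaling. The slope of Gcnt2 on Mss51 differed between JA16 and saline by 0.63 (SE 0.28), which did not pass adjustment over all genes (limma adjusted p = 0.8908). Mss51 with Bicc1 stood at 0.623 in JA16 (permutation p = 0.05378, adjusted 0.251) and -0.338 in saline (permutation p = 0.3403).

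Among all genes, those most like Mss51 over deviations from the group means in 20 samples were Nts (0.68), which encodes the peptide neurotensin, and Drp2 (0.67), a dystrophin-related protein of Schwann cells. Next came Pard3b, Atp5j, Fer1l6, Efhd1, Spa17, Zic1, Tnfrsf19 and Zfp30, the last at 0.61. The most opposed were Adpgk (-0.72), an ADP-dependent glucokinase, and then Xkrx, Pced1a, Sigirr and 3110040N11Rik (-0.61). These are the extremes of 11200 correlations, and none of their slopes passed the adjustment. Drp2 had 527.3 ± 229.3 in JA16 and 876.2 ± 308.3 in saline samples, a log2 difference of -0.79 (SE 0.23 and limma adjusted p = 0.9998 without the replicate block, adjusted p = 0.1176 with it). Atp5j, a subunit of mitochondrial ATP synthase, had a log2 difference of 0.04 (SE 0.06).

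The members had 23 single-gene probe sets between them, of which 13 reached the mean intensity of 50.1 required for testing. The 8 brightest, 1 per gene, carry the values above, and all 8 genes were tested. Of the other 15, the 5 above the filter were all lower in JA16. They were 1 each of Otub2 (-0.46, SE 0.38), Art5 (-0.55, SE 0.45) and Rps6ka5 (-0.96, SE 0.71) and a pair of Bicc1 (-0.22, SE 0.24, and -0.28, SE 0.11), so the dimmer probe sets of Bicc1 showed a smaller difference than its brightest (-0.59). Of the 10 below the filter 6 were lower. The others were a pair of Gcnt2 (0.31 and 0.20) and a pair of Pnrc1 (1.75 and 0.31), all with medians of 21 or less in both groups. One of them, of Pnrc1, had a median of 9 in JA16 and 4.9 in saline samples and a difference of 1.75 (SE 0.77), opposite to the brighter probe set of this gene. The SEs in this paragraph come from the pooled SD of both groups and not from limma.

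**Figure D4:**
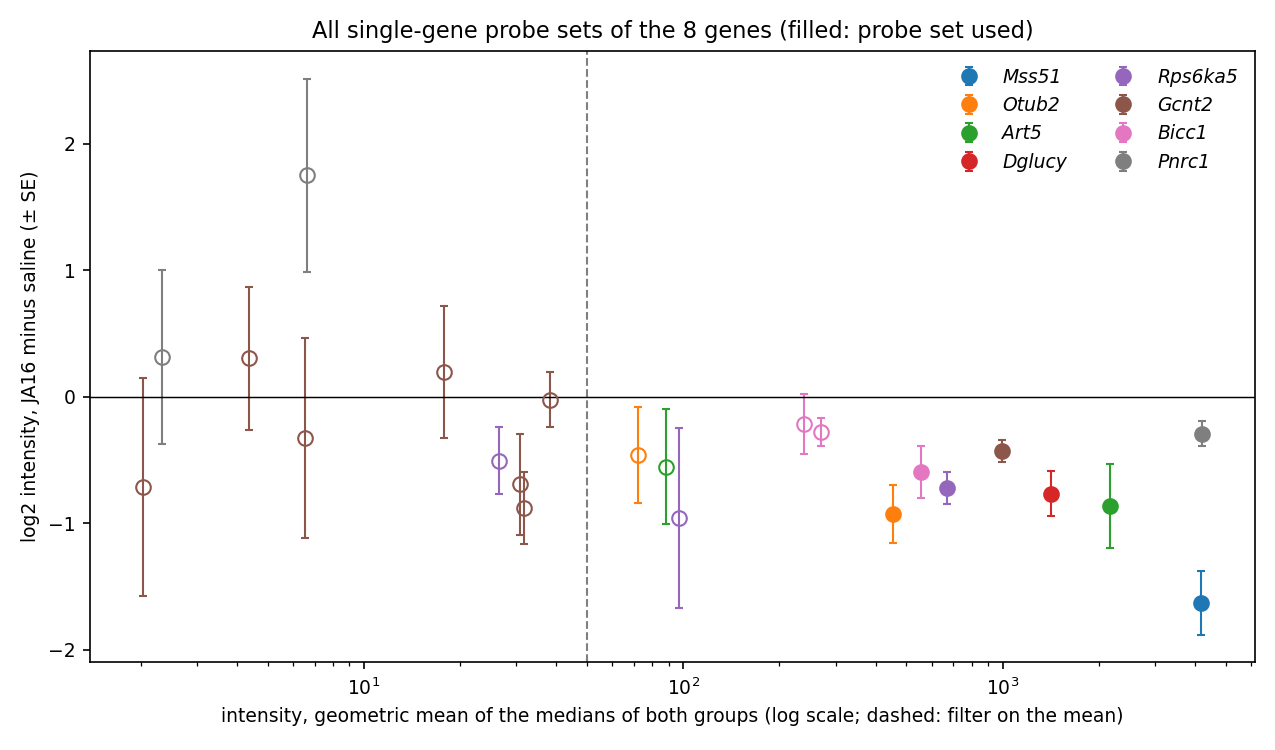
Log2 intensity in JA16 minus saline (± SE from the pooled SD of both groups, not from limma) of all 23 single-gene probe sets against their intensity (log axis). Filled circles are the probe set used for each gene, open circles the others, and the dashed line is the filter. All 13 probe sets above the filter are below 0, and those to its left scatter on both sides with wide errors.

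The genes beside the members on their chromosomes were next compared. Of the 28 measured genes that lie first or second on either side of a member in the RefSeq order and are not members, 17 lay below 0 and the median log2 difference was -0.02. None passed limma without the block and 1 passed with it. An unadjusted p under 0.05 was reached by 2 without the block (7.14%, beside 2.65% of all genes) and by 5 with it (17.9%, beside 16.2% of all genes). The gene that passed is Prima1, which encodes the membrane anchor of acetylcholinesterase and is the second measured neighbour of Otub2. It had 121.9 ± 41.8 in JA16 and 239.3 ± 109.7 in saline samples, a log2 difference of -0.94 (SE 0.18 and limma adjusted p = 0.04839 with the replicate block, adjusted p = 0.914 without it). Asb2, which lies between them and encodes a ubiquitin ligase subunit of muscle, had a log2 difference of -0.15 (SE 0.18). Beside Mss51, Anxa7 had -0.15 (SE 0.18) and Ppp3cb, a catalytic subunit of calcineurin, -0.03 (SE 0.10). Art1, the ADP-ribosyltransferase gene next to Art5, had 11879 ± 1390 in JA16 and 12004 ± 1412 in saline samples, a log2 difference of -0.01 (SE 0.08).

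With Prima1, 4 of the 14 genes called lower with the replicate block lie on chromosome 12, which holds 3.51% of the tested genes. All 4 lie in one stretch of 19 measured genes bounded by Rps6ka5 and Otub2, a stretch that was drawn after the values were seen. The 15 others in it ran from -0.23 to 0.17 with a median of -0.04, and 8 of the 15 were lower in JA16. Their lowest limma adjusted p with the block was 0.301. Both ends of the stretch are members, and 3 of the 4 low genes in it are members by choice, so the share on chromosome 12 is read no further. Of the 17 genes called higher with the block, 1 lies on chromosome 12.

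**Figure D5:**
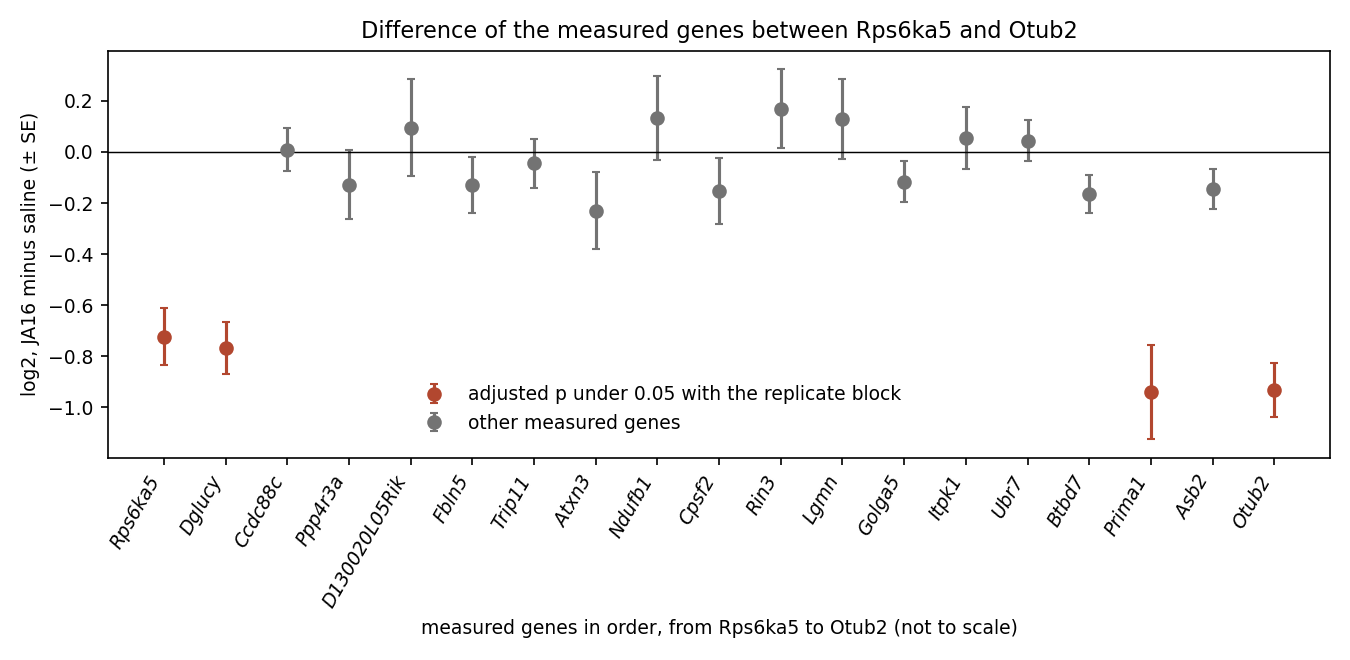
Log2 intensity in JA16 minus saline (± SE with the replicate block) of the 19 measured genes between Rps6ka5 and Otub2, in their order along the chromosome and not to scale. Rps6ka5, Dglucy, Prima1 and Otub2, in red, lie between -0.94 and -0.72, and the 15 others lie between -0.23 and 0.17.

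Genes that work with the members or resemble them were described through 13 lists. Of their 151 genes 114 were measured, 58 of these were lower in JA16, and their median log2 difference was -0.001, against -0.02 over all genes. With limma 0 of the 114 passed an adjusted p of 0.05 with or without the replicate block, an unadjusted p under 0.05 was reached by 27 (23.7%) with the block and by 3 (2.63%) without, beside 16.2% and 2.65% of all genes, and the lowest adjusted p with the block was 0.1052, that of Smyd1. For the mitochondrial side of Mss51, 4 of 21 measured complex IV assembly genes were lower, with a median of 0.05, and 7 of 17 mitochondrial translation factors were lower, with a median of 0.08. Coa3, which in human cells stabilises newly made cytochrome oxidase subunit 1, had 9848 ± 1559 in JA16 and 8656 ± 1358 in saline samples, a log2 difference of 0.19 (SE 0.05 and limma adjusted p = 0.1361, both with the block). Cox17 was at 0.04 (SE 0.07) and Coa5 at 0.04 (SE 0.13), and of the translation factors C1qbp was at 0.08 (SE 0.20), Tufm at 0.22 (SE 0.21) and Gfm1 at 0.10 (SE 0.14). Of 14 measured MYND genes 5 were lower, and the brightest were Egln1 at -0.09 (SE 0.08), Smyd2 at 0.16 (SE 0.12) and Zmynd11 at -0.17 (SE 0.16). Smyd1, the methyltransferase of the sarcomere, had 5247 ± 797.6 in JA16 and 4241 ± 1012 in saline samples, a log2 difference of 0.33 (SE 0.13).

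For the enzymes, 9 of 12 measured OTU deubiquitinases were lower, with a median of -0.14, Otud1 at -0.14 (SE 0.16) and Zranb1 at -0.19 (SE 0.17). Otub1, the closest relative of Otub2, had 3440 ± 1677 in JA16 and 3078 ± 1350 in saline samples, a log2 difference of 0.11 (SE 0.33). Of the measured relatives of Art5, Art1 is given above and Art3 was at -0.04 (SE 0.10). Near 0 too were the measured D-amino acid enzymes Ddo (-0.04, SE 0.25) and Srr (0.04, SE 0.19), and the one measured relative of Rps6ka5, Rps6ka3 (-0.004, SE 0.37). Of the kinases upstream of Msk1, 1 of 9 was lower and the median was 0.16, with Mapk14, which encodes p38 alpha, at 0.08 (SE 0.07), Mapk12 at 0.08 (SE 0.10) and Map2k4 at 0.17 (SE 0.10). Of the chromatin and CREB genes linked to Msk kinases 6 of 7 were lower, with a median of -0.02, Hmgn1 at -0.01 (SE 0.10), Crebbp at -0.05 (SE 0.12) and Ep300 at -0.22 (SE 0.13). Of the branching and poly-N-acetyllactosamine enzymes related to Gcnt2, 2 of 5 were lower, with B4galt1 at 0.09 (SE 0.13), B3gnt2 at 0.07 (SE 0.15) and Gcnt1 at -0.38 (SE 0.44). All 4 measured partners of Bicc1 lay below 0 (median -0.07), with Dicer1 at -0.21 (SE 0.16), Pkd1 at -0.05 (SE 0.17) and Anks3 at -0.05 (SE 0.22). Of the decapping genes around Pnrc2 7 of 10 were lower, with Upf1 at 0.04 (SE 0.14), Pnrc2 at -0.04 (SE 0.11) and Ddx6 at -0.06 (SE 0.10). Of the nuclear receptors that Pnrc proteins bind 9 of 10 were lower, with a median of -0.12, Rxra at -0.005 (SE 0.16), Esrrg at -0.51 (SE 0.35) and Nr3c1 at -0.26 (SE 0.27).

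Most markers of other cells in the muscle, and those of slow fibres, lay below 0 without passing the test, and in bulk tissue fewer cells of a type and less RNA per cell cannot be told apart. With limma 0 of the 78 measured marker genes passed an adjusted p of 0.05 with or without the block, and unadjusted p-values under 0.05 numbered 14 (17.9%) with it and 6 (7.69%) without, beside 16.2% and 2.65% of all genes. Of 15 nerve and Schwann cell markers 7 were measured. All 7 lay below 0 (median log2 difference -0.59), and their summed intensity was 7092 to 18774 in JA16 and 10083 to 19367 in saline samples. That sum was lower in JA16 in 9 of 10 pairs. Of the 14 marker genes at an unadjusted limma p under 0.05 with the block, 6 were among these 7. The others were 3 fast fibre, 3 fibroblast and tendon and 2 endothelial and mural markers. Drp2, named above for its correlation with Mss51, belongs to these 7. All 12 slow fibre markers lay below 0 too (median -0.49), with sums of 10151 to 172614 in JA16 and 67735 to 141260 in saline samples. Of the fibroblast and tendon markers 11 of 12 were lower (median -0.23), of the endothelial and mural markers 10 of 12 (median -0.18), of the adipocyte markers 5 of 7 (median -0.26), of the macrophage and leukocyte markers 7 of 9 (median -0.12) and of the blood cell markers both that were measured. Of the 11 fast fibre markers 10 were higher, with a median of 0.05. Adipocyte sums were 10382 to 36227 in JA16 and 11217 to 17100 in saline samples. The part of these shifts in the differences of the 8 genes was not tested.

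The other letters searched in the promoter windows, on both strands, were those of the E-box (CANNTG), AP-1 (TGANTCA), CRE (TGACGTCA), a shorter CRE (TGACG, which the full CRE contains), the GC box (GGGCGG), FoxO (TGTTTAC), MEF2 (CTANNNNTAG), the glucocorticoid receptor (GNACANNNTGTNC) and estrogen-related receptors (TCAAGGTCA). The table held 11 windows of 7 members, some with several starts, and Bicc1 was not in it. The E-box was in windows of 3 members (Otub2, Art5 and Gcnt2), in 72.3% of all windows and in 64.0% of those of tested genes. The shorter CRE was in those of Otub2, Rps6ka5 and Gcnt2 (20.8% of all windows and 30.7% of those of tested genes), the GC box in those of Rps6ka5 and Gcnt2 (35.7% and 62.1%), and AP-1 in that of Otub2 (7.81% and 5.08%). The full CRE (1.79%), FoxO (3.65%), MEF2 (3.69%), glucocorticoid receptor (0.475%) and estrogen-related receptor (0.423%) letters were in none of the 11. Art5 had 3 boxes of CAGAC in its window, of which the pair before the start is shown in capitals because this gene has more of them in 1 window than any other member.
Art5 (chr7:102100230-102100479, minus strand): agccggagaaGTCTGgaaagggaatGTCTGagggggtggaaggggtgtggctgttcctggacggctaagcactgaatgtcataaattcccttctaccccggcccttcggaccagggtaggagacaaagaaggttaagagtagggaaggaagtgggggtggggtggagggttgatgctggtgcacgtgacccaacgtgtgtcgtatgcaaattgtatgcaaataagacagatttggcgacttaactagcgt
These boxes lie 240 to 236 and 225 to 221 bases before the start.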

How the data were processed

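RNA from 20 gastrocnemius samples, 10 JA16 and 10 saline, was measured on Affymetrix Mouse430_2 arrays. The authors deposited 1 linear intensity per probe set and array. The tool named in the submitters' processing notes is MAS5, without a version. With 2% of probe sets trimmed at either end, every array averaged 500, so arrays had been scaled to one target. Detection calls were not used here.

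Of 45101 probe sets 64 were controls, and the platform annotation named 1 gene for 34945, of which 34741 matched RefSeq by gene identifier, several for 932 and none for 9160. Values at or below 0 (5 in all) were set to 0.1 before log2. Probe sets whose mean log2 intensity reached the median of 5.65 were kept, with the brightest per gene, 11201 genes in all. Genes were tested with limma 3.58.1 in R 4.3.3 (eBayes with an intensity trend, two-sided, Benjamini-Hochberg over all genes, threshold 0.05). Correlations used 100000 permutations, or all orders for replicates 1 to 6, and arrays were split into sets at a log2 beta-actin ratio of 1. Tables were joined with pandas 2.3.3 and drawn with matplotlib 3.10.9.

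Replicate numbers are shared by the groups. Across genes, deviations from the group mean correlated at 0.377 to 0.786 within each of the 10 pairs (median of other combinations -0.108), and the numbers were therefore used as pairs. The other combinations include samples of different array sets, whereas same-numbered samples share a set. This check therefore cannot tell pairing by number from a shared set. The fit without the block came first.

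The members and lists were chosen with earlier results of these data known. The fits were tested on simulated data. Named genes were the members, the 10 genes most like Mss51 and the 5 most opposed, the nearest 2 measured neighbours on each side, and in each list the called genes and the 3 brightest, except that marker lists are given by counts and sums. Other genes of the lists and of the chromosome 12 stretch were named after their values were seen. Alternatives were median-centring, quantile normalization, other filters and floors, the replicate or array set as a block, and leaving out each replicate. The number of arrays limits the precision.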

Additional observations from a re-analysis of the deposited data

Results flagged for a closer look

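Pnrc1 in JA16 replicate 7 stood apart from the other JA16 samples. Its intensity there was 2766, and its gap to the next sample was 0.605 of the range of the group, above the Dixon critical value of 0.466 for 10 samples. The same replicate number was lowest for Pnrc1 in saline too, at 2987, and it was lowest for Art5 and Dglucy and highest for Bicc1 in both groups. Of 16 gene and group combinations 1 was so far apart, and chance gives about 1 in 20.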

How the results depend on the processing

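The count of genes called between JA16 and saline was 4 (limma, adjusted p under 0.05). It was 2 on median-centred arrays, 2 with the brightest 25% of probe sets, 31 with the replicate block and 9 with the array set as a block. The counts of genes associated with Mss51, of genes whose difference depends on array set and of list genes called were 0 and remained 0 under every alternative run. The spread ratio of Mss51 was 1.33 and passed the threshold when pairs were ignored (no replicate block, p = 0.02768). Leaving out one replicate gave ratios of 1.07 to 1.65. The differences of the 8 genes kept their sign and moved by less than 1 SD in 152 of 152 combinations of gene and setting other than another probe set. Some of these settings could not move the difference, since the replicate block, the array set block and the floor of 16 returned the main value. The band of 1 SD is also wide, as it took in Bicc1 at -0.40 in replicates 1 to 6 and -0.88 in replicates 7 to 10. The genes were chosen on this difference, so the count is read no further. Reversed values came from dim probe sets, 0.31 and 0.20 for Gcnt2 and 1.75 and 0.31 for Pnrc1, and from the saline correlation of Mss51 with Gcnt2, which was 0.249 on median-centred arrays. The cause was not tested.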
